A study of Homo sapiens with 18 samples.

Results

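The 10 genes of the epidermal growth factor (EGF) system described here are 6 EGF-family ligands (AREG, EREG, BTC, HBEGF, TGFA and EGF) and the 4 ERBB receptors (EGFR, ERBB2, ERBB3 and ERBB4). They were taken by symbol from the 28395 genes of the RNA-seq tables, and with them the 31 of 85549 ATAC-seq regions that lay within 5 kb of one of them. The cells were K562, a human leukemia line that carries the BCR-ABL fusion kinase. V-K562 is the control line, and what it was transfected with is not given in the sources used here. B-K562 expresses wtBASP1, a transcriptional corepressor, and G-K562 the mutant BASP1-G2A, to which the N-terminal myristoyl lipid is not attached. The transfected derivatives were selected as pools, not clones, and were kept in the drug G-418. RNA-seq and ATAC-seq each had 3 replicates of each line, 9 libraries per assay, and the comparisons ask how the RNA and the open chromatin of these genes differed with each form of BASP1.

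EGF-family ligands are made as membrane-anchored precursors, and proteases of the ADAM family release the active factor from the cell surface. AREG, TGFA and EGF bind EGFR, while EREG, BTC and HBEGF bind EGFR and ERBB4. ERBB2 has no known soluble ligand and pairs with the other receptors, and ERBB3 binds neuregulins but has very weak kinase activity of its own. AREG has long been studied as a target of WT1, the transcription factor with which BASP1 was first linked as a corepressor.

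Promoter sequences are shown for AREG, EREG and EGF, since these are the ligand genes whose RNA changed by 2-fold or more and which had a region of open chromatin at the start site. Each is the 250 bases before the start site given by RefSeq (GRCh38.p14), read 5' to 3' on the plus strand: chr4:74444886-74445135 for AREG, chr4:74364895-74365144 for EREG and chr4:109912633-109912882 for EGF. Capitals mark matches on either strand to the cyclic AMP response element TGACGTCA, the TATA box TATAAA and the AP-1 site TGANTCA. The letters GCGGGGGCG, bound by EGR proteins and by WT1, were also searched.
AREG: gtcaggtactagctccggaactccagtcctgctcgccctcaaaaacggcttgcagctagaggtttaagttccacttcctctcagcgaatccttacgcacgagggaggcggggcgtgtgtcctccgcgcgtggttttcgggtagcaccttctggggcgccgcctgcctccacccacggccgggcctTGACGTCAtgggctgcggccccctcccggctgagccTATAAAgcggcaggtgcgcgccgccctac
EREG: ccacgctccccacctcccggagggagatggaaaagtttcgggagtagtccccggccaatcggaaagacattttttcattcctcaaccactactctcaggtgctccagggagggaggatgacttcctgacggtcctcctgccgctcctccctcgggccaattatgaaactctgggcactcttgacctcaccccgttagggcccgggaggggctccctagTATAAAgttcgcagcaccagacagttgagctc
EGF: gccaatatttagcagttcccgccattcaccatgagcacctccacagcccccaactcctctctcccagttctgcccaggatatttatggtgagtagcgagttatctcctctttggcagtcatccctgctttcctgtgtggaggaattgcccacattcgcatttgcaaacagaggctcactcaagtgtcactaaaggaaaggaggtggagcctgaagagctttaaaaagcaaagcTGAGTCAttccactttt
A TATA box stood 29 bases before the start of AREG (first base at -29) and at -32 in EREG. EGFR was the other gene of the 10 with these letters, but in a second RefSeq entry inside the gene (chr7:55109589-55109838) and not in the entry at its start (chr7:55018767-55019016), and 13.05% of the promoters of 27305 symbols hold them. TGACGTCA was found in AREG alone among these genes, from -65 to -58, and in 2.03% of all promoters. EGF held TGAGTCA from -17 to -11, and TGANTCA was also found for ERBB2 and in the inner entry of EGFR, against 8.06% of all promoters. None of the 9 genes with an entry held GCGGGGGCG, which 5.74% of all promoters hold, and none of these matches shows that a factor bound. ERBB3 had no entry. The GC content was 65.2% for AREG, 58.0% for EREG and 48.8% for EGF, against a median of 58.0% over all promoters.

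RNA levels are given as normalised read counts, which are reads per gene divided by a size factor of the library and rounded to a whole number. BASP1 RNA was at 5 to 7 in the 3 V-K562 libraries, at 6189 to 6849 in those of B-K562 and at 8124 to 12538 in those of G-K562, so the libraries of V-K562 were apart from those of both BASP1 lines. This level does not tell the forms of BASP1 apart, so the labels of B-K562 and G-K562 were not checked by it. BASP1-G2A RNA in G-K562 was 1.48-fold that of wtBASP1 RNA in B-K562 (log2 difference 0.56 ± 0.14 (SE), adjusted p = 0.0019), so the level of the BASP1 RNA and its form cannot be told apart in a comparison of these lines. V-K562 replicate 1 stood apart: 31 genes had a value of at least 10 there and of at most 2 in the other 8 libraries, among them TGFA and KRT5, a keratin of squamous epithelium (143 against 0 in the other V-K562 libraries of the same table). B-K562 replicate 1 had 18 such genes, G-K562 replicate 2 had 1 and the others 0. The 9 erythroid markers examined, which include the fetal globin gene HBG1, differed between the lines too. Their sum per library ranged from 127097 to 143003 for V-K562, from 218707 to 222635 for B-K562 and from 69077 to 74803 for G-K562, with no marker at 0 in any line. At an adjusted p of at most 0.05, all 9 were higher in B-K562 than in V-K562. In G-K562 against V-K562, 8 were lower and 1, TFRC, was higher (log2 difference 0.56 ± 0.08). Of all genes tested, 75.8% and 66.9% passed in these comparisons in either direction. The 6 epithelial markers ranged from 37175 to 38665 in sum for V-K562, from 25708 to 26220 for B-K562, where KRT5 was at 0 throughout, and from 42049 to 43403 for G-K562. In the same order of lines, the sums of the 5 lymphoid markers were 555 to 696, 244 to 261 and 275 to 383, with MS4A1 at 0 in all libraries, and those of the 4 fibroblast markers 1500 to 1769, 906 to 1260 and 1157 to 1278. The part of these shifts in the results below was not tested. The totals of the deposited values, 32074895 to 33229588 per library, reflect the normalisation and not the depth. In the 4 libraries where the rounding allowed an estimate, between 28914432 and 37039975 reads fell on genes.

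In each comparison 6 of the 10 genes reached a value of 10 in 3 or more libraries and were tested: AREG, EREG, HBEGF, EGF, ERBB2 and ERBB3. BTC, TGFA, EGFR and ERBB4 were not. Per kilobase of exon, so that genes can be set against each other, AREG was the most abundant RNA in V-K562 at 258 ± 12.2 (SD, n = 3), followed by EGF at 154 ± 8.13, ERBB3 at 112 ± 20.5, ERBB2 at 95.7 ± 1.17 and HBEGF at 52.9 ± 5.79. The ranges of these neighbours in the order did not overlap. EREG followed at 2.88 ± 0.974, and its range overlapped that of TGFA. In G-K562 the same 5 genes led in the same order, with AREG at 367 ± 8.62 and the ranges of EGF (142 ± 7.53) and ERBB3 (133 ± 18.8) overlapping. EREG stood sixth there at 16.4 ± 2.41, apart from HBEGF at 37.3 ± 3.62. In B-K562 the order differed. ERBB2 led at 78.8 ± 5.16, HBEGF (47.6 ± 2.34) and EGF (46.1 ± 0.847) overlapped, and so did AREG (42.3 ± 1.36) and ERBB3 (39.2 ± 3.92).

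**Figure D1:**
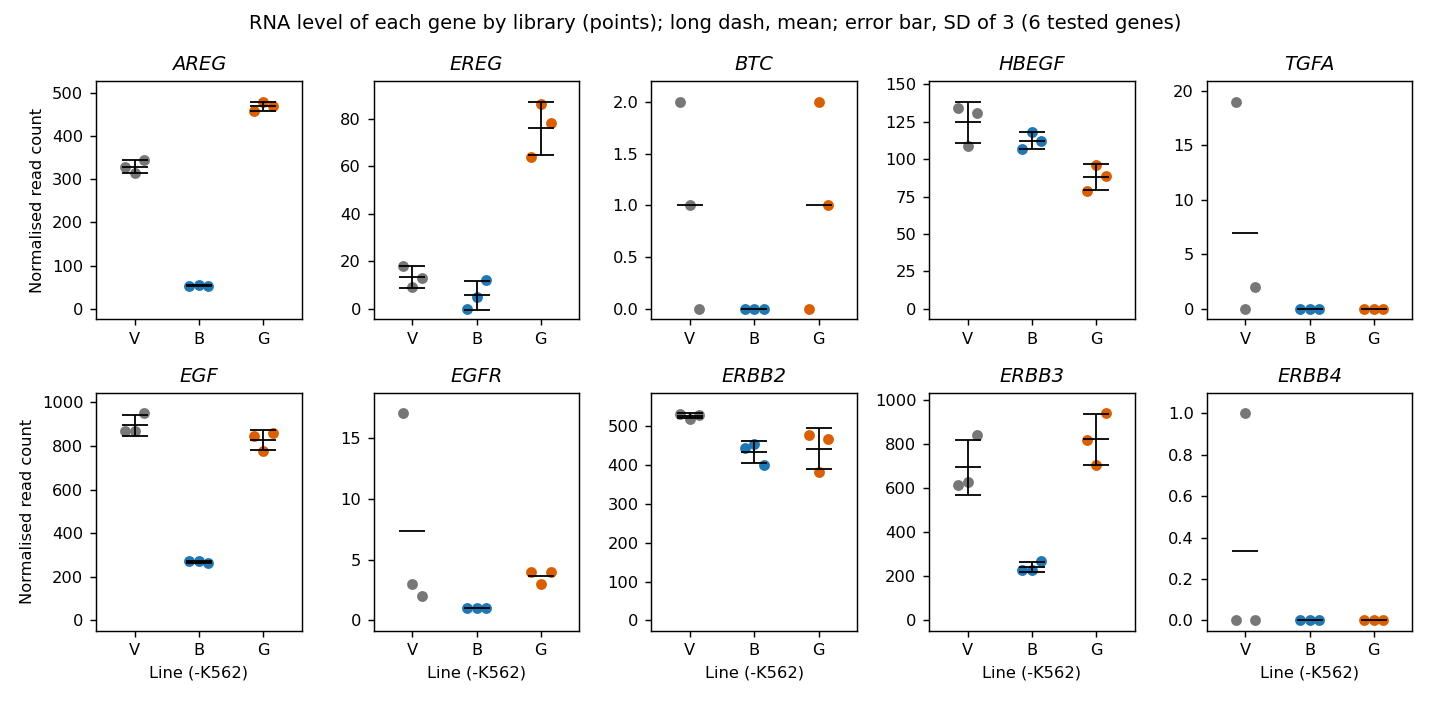
Normalised read counts (y axis, linear, each panel on its own scale) of the 10 genes in each line (x axis), one point per library and 3 per line, with the mean as a long dash and the SD of 3 libraries as an error bar for the 6 tested genes. V-K562 and G-K562 come from one deposited table and B-K562 from another, whose scale differs by a factor of 1.017. AREG, EGF and ERBB3 sit low in all B-K562 libraries, EREG is high only in G-K562, and the TGFA and EGFR values of V-K562 rest on 1 library.

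The lines were compared with limma on log2(value + 1), with p-values adjusted over all genes tested. A gene was called where the adjusted p was at most 0.05 and the difference at least 2-fold. Of the 6 tested genes, 3 were called lower and 0 higher in B-K562 than in V-K562, where 14.1% of the 14958 genes tested were called lower and 6.46% higher. In G-K562 against V-K562, 0 were called lower and 1 higher, against 10.3% and 8.81% of 15271 genes. For G-K562 against B-K562, 0 were called lower and 4 higher, against 12.5% and 17.4% of 15521 genes. Without the fold criterion, 4, 4 and 5 of the 6 passed in these comparisons, against 75.8%, 66.9% and 78.5% of all genes. Values of one line lay wholly outside those of the other for 4, 5 and 5 of the 6, against 77.8%, 70.2% and 81.0% of all genes. These shares of passing and non-overlapping genes are near those of all genes, and the 6 counted are those that passed the filter. Both comparisons with V-K562 use the same V-K562 libraries.

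AREG (amphiregulin, an EGFR ligand; chromosome 4, 74445098 to 74455009, plus strand, GRCh38) was low in B-K562 and moderately high in G-K562. Its normalised read counts were 322, 310 and 339 in V-K562, 53, 56 and 53 in B-K562, and 457, 479 and 468 in G-K562. No library of one line reached the range of another. AREG fell 5.90-fold in B-K562 relative to V-K562 (log2 difference -2.56 ± 0.11 (SE), adjusted p = 1.68e-10). In G-K562 it rose 1.42-fold over V-K562 (log2 difference 0.51 ± 0.08, adjusted p = 1.87e-04), short of the 2-fold criterion, and G-K562 exceeded B-K562 8.39-fold (log2 difference 3.07 ± 0.09, adjusted p = 9.52e-13).

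EREG (epiregulin, a ligand of EGFR and ERBB4; chromosome 4, 74365143 to 74388760, plus strand) lies next to AREG and had far fewer reads. Its values were 18, 9 and 12 in V-K562, 0, 5 and 12 in B-K562, and 64, 86 and 78 in G-K562. The V-K562 and B-K562 libraries overlapped, while every G-K562 library was above all others. EREG rose 5.52-fold in G-K562 over V-K562 (log2 difference 2.46 ± 0.26, adjusted p = 5.95e-06) and 17.7-fold over B-K562 (4.15 ± 0.66, adjusted p = 4.65e-05). Against V-K562 it passed the filter only with the G-K562 libraries counted. In the fit against B-K562, which held all 9 libraries, V-K562 replicates 1 and 3 and B-K562 replicate 3 already met the filter. Between B-K562 and V-K562 the log2 difference was -1.66 ± 0.72, with a 95% interval of -3.23 to -0.10 and an adjusted p of 0.0514. It turned on B-K562 replicates 1 and 3: without replicate 3 the log2 difference was -2.46 (adjusted p = 0.0060), and without replicate 1 it was -0.61 (adjusted p = 0.22). At these values the counting error is large, and each fold compares means of log2(value + 1), which need not equal the ratio of the mean values.

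EGF, the founding member of the family (chromosome 4, 109912883 to 110012962, plus strand), shared with AREG the low level in B-K562 but not the rise in G-K562. Its values were 854, 854 and 930 in V-K562, 271, 272 and 263 in B-K562, and 845, 777 and 859 in G-K562. All B-K562 libraries lay below all others. EGF fell 3.26-fold in B-K562 (log2 difference -1.71 ± 0.07, adjusted p = 1.26e-10), and G-K562 exceeded B-K562 3.02-fold (1.59 ± 0.07, adjusted p = 4.26e-11). Between G-K562 and V-K562, whose values were 867, 867 and 949 in the table that holds both, the log2 difference was -0.11 with a 95% interval of -0.27 to 0.05 (adjusted p = 0.19).

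HBEGF (heparin-binding EGF-like growth factor; chromosome 5, 140332843 to 140346603, minus strand) varied little. Its values were 132, 107 and 128 in V-K562, 107, 118 and 112 in B-K562, and 79, 96 and 89 in G-K562. The V-K562 and B-K562 libraries overlapped, and the log2 difference between them was -0.12 with a 95% interval of -0.38 to 0.15 (adjusted p = 0.40). All G-K562 libraries lay below the others, 1.41-fold lower than V-K562 (log2 difference -0.50 ± 0.14, adjusted p = 0.0086) and 1.30-fold lower than B-K562 (-0.38 ± 0.13, adjusted p = 0.015). The difference from B-K562 did not pass without B-K562 replicate 2 (adjusted p = 0.056) or without G-K562 replicate 1 (adjusted p = 0.066).

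TGFA and BTC were near or at 0. TGFA (transforming growth factor alpha; chromosome 2, minus strand) had 19, 0 and 2 in V-K562 and 0 in each B-K562 and G-K562 library. Without V-K562 replicate 1, the library that stands apart, its V-K562 mean went from 7 to 1. BTC (betacellulin; chromosome 4, 74744759 to 74794672, minus strand), on the far side of AREG from EREG, had 2, 1 and 0 in V-K562, 0 in each B-K562 library, and 0, 2 and 1 in G-K562. Neither gene had enough reads for a comparison.

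Of the 2 receptors tested, ERBB3 (chromosome 12, 56080025 to 56103507, plus strand) was the one that fell in B-K562 by more than 2-fold. Its values were 606, 616 and 823 in V-K562, 228, 230 and 271 in B-K562, and 820, 706 and 939 in G-K562. The B-K562 libraries lay below all others, while V-K562 and G-K562 overlapped. ERBB3 fell 2.78-fold in B-K562 (log2 difference -1.47 ± 0.11, adjusted p = 5.12e-08), and G-K562 exceeded B-K562 3.30-fold (1.72 ± 0.13, adjusted p = 1.28e-08). Between G-K562 and V-K562 the log2 difference was 0.25 with a 95% interval of -0.03 to 0.53 (adjusted p = 0.11). It passed without V-K562 replicate 3 (log2 difference 0.39, adjusted p = 0.012), the library with the highest V-K562 value, and without G-K562 replicate 2 (0.35, adjusted p = 0.026).

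ERBB2 (HER2; chromosome 17, 39688084 to 39728662, plus strand) was slightly lower in both BASP1 lines. Its values were 523, 511 and 518 in V-K562, 443, 455 and 401 in B-K562, and 478, 383 and 466 in G-K562. All V-K562 libraries lay above the others, and the B-K562 and G-K562 libraries overlapped. ERBB2 fell 1.20-fold in B-K562 (log2 difference -0.26 ± 0.07, adjusted p = 0.0051). The difference of G-K562 from V-K562 was of like size (-0.26 ± 0.09, adjusted p = 0.031), but did not pass without any 1 of the V-K562 libraries (adjusted p = 0.065 to 0.071) or without G-K562 replicate 2 (0.12). Between G-K562 and B-K562 the log2 difference was 0.00 with a 95% interval of -0.19 to 0.19 (adjusted p = 0.99).

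EGFR, the receptor that all 6 ligands can bind, was barely detected, and ERBB4 had 1 value above 0. EGFR (chromosome 7, 55019032 to 55207338, plus strand) had 17, 3 and 2 in V-K562, 1 in each B-K562 library, and 4, 3 and 4 in G-K562. Without V-K562 replicate 1 its V-K562 mean went from 7.33 to 2.50, below the G-K562 mean of 3.67. ERBB4 (chromosome 2, minus strand) was at 0 in all libraries but V-K562 replicate 2, where its value was 1. Both stayed below the filter, so no comparison between the lines was made.

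**Figure D2:**
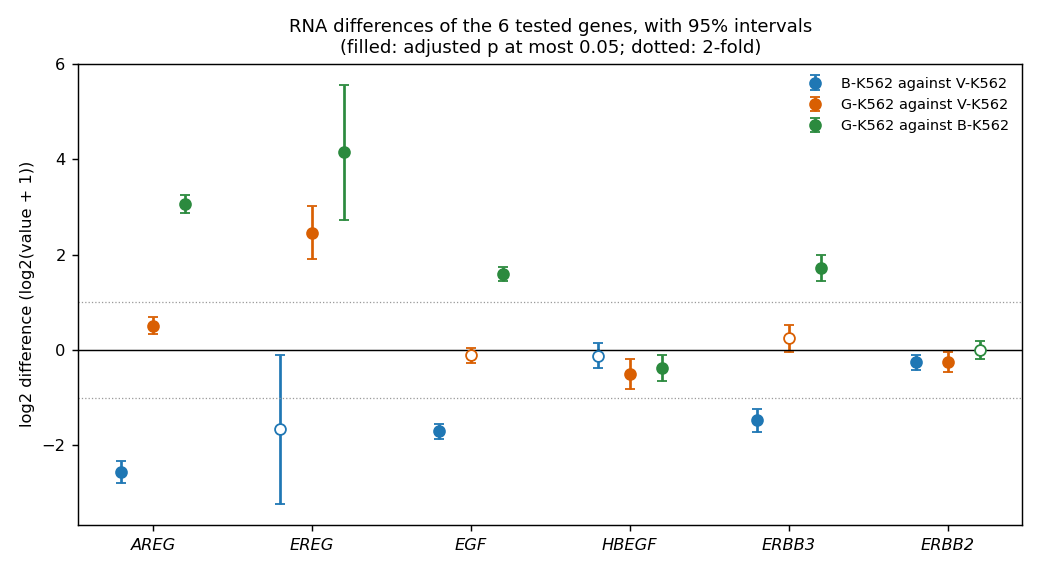
Log2 differences between the lines (y axis, log2(value + 1) scale) for the 6 tested genes (x axis), with 95% intervals from limma; filled points have an adjusted p of at most 0.05, and dotted lines mark 2-fold. AREG, EGF and ERBB3 lie below -1 in B-K562 against V-K562 and above 1 in G-K562 against B-K562, while ERBB2 and HBEGF stay within 2-fold in all comparisons.

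ATAC-seq cuts open chromatin with a transposase, and the files give the peaks called in each library with the pileup of tags at each summit. Of the 31 regions, 9 had a peak in all 9 libraries and 7 in 1 library only. ERBB2 and ERBB3 had 4 regions each, EGF 7, EGFR 6, AREG and EREG 3 each, TGFA 2, HBEGF and BTC 1 each, and ERBB4 0. The libraries of V-K562 had peaks in 20, 25 and 17 of the regions, those of B-K562 in 15, 15 and 13, and those of G-K562 in 23, 18 and 15, so V-K562 and G-K562 overlapped and B-K562 was below both except for a tie at 15. Over the whole genome V-K562 also had the most peaks, 53862 to 55570 per library. The B-K562 libraries had 47111 to 48905 and the G-K562 libraries 48408 to 51199. For the test, pileups were scaled between libraries and a library without a peak or with a lower pileup was set to a floor of 17, the 5th percentile of all summit pileups. Such a library is not shown to lack tags. Where a whole line was at the floor, the difference is set by the floor and is neither a measurement nor a bound, so it is given without a test. Regions were called as genes were. Of 17 regions tested in B-K562 against V-K562, 3 were called lower and 0 higher, where 6.12% of 52204 regions were called lower and 1.53% higher. In G-K562 against V-K562, 2 of 22 were lower and 0 higher, against 13.0% and 2.92% of 54213 regions. Of 23 in G-K562 against B-K562, 1 was lower and 1 higher, against 8.56% and 4.32% of 60181 regions. These counts include regions with a whole line at the floor: the start region of EGF in B-K562 against V-K562, a region before ERBB2 in both comparisons of G-K562, and the start region of EREG in G-K562 against B-K562. Without the fold criterion 7 regions passed in each comparison, against 25.2%, 42.0% and 27.9% of all regions. Besides those named above, more of these had a whole line at the floor. In B-K562 against V-K562 they were the start region of EREG and an EGF region 31021 bp after the start. In G-K562 against V-K562 they were that EGF region and a region before TGFA. The pileups printed here are those deposited, before the scaling, whose factors were 0.866 to 0.896 for V-K562, 0.980 to 1.01 for B-K562 and 1.12 to 1.18 for G-K562.

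The region at the start of AREG (chr4:74444837-74445710, summit at 74445120, 22 bp after the start) had summit pileups of 53, 67 and 69 in V-K562, 54, 38 and 38 in B-K562, and 88, 68 and 104 in G-K562. V-K562 replicate 1 and B-K562 replicate 1 overlapped. It covers the TATA box and TGACGTCA in the sequence above. Distances of regions are counted from the gene start given in the RNA-seq tables, 74445098 for AREG, while the motif positions are counted from the RefSeq start just after 74445135, and the summit lies between these. The log2 difference of B-K562 from V-K562 was -0.69 ± 0.20 (adjusted p = 0.036), that of G-K562 from B-K562 0.77 ± 0.19 (adjusted p = 0.013), and that of G-K562 from V-K562 0.10 with a 95% interval of -0.31 to 0.51 (adjusted p = 0.67). The first of these did not pass when V-K562 replicate 2 or 3, or B-K562 replicate 2 or 3, was left out, with log2 differences of -0.65 to -0.61, and the second without B-K562 replicate 2 (0.69) or G-K562 replicate 3 (0.65).

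An intron of AREG held a second region, 6198 bp after the start (chr4:74451137-74451537). Its pileups were 38, 32 and 38 in V-K562, 21, 16 and no peak in B-K562, and 53, 26 and 35 in G-K562. All V-K562 libraries exceeded the B-K562 libraries with a peak. The region was called lower in B-K562 (log2 difference -1.04 ± 0.18, adjusted p = 0.0057), with B-K562 replicates 2 and 3 at the floor. The difference was short of 2-fold without V-K562 replicate 1 (-0.99, adjusted p = 0.014), without scaling (-0.94), with the mean pileup (-0.88) and with scaling within GC bins (-0.84). In G-K562 against B-K562 the log2 difference was 0.77 ± 0.25 (adjusted p = 0.045), which did not pass without any 1 of the libraries other than G-K562 replicate 2. The remaining AREG region, 8118 bp after the start, had peaks in V-K562 replicates 1 and 2 only, with pileups of 21 and 37.

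The region at the start of EREG (chr4:74364988-74365498, summit 105 bp after the start, in the annotated untranslated part of exons) had pileups of 20, 20 and 24 in V-K562 and 56, 65 and 39 in G-K562, while in B-K562 only replicate 3 had a peak, at 15. The lines did not overlap where peaks were called. All B-K562 libraries were at the floor in the fit, which set the log2 differences of 1.37 for G-K562 against B-K562 and -0.38 for B-K562 against V-K562. The rise over V-K562, 0.92 ± 0.24 (adjusted p = 0.018), was short of 2-fold and did not pass without V-K562 replicate 1 or 2 or G-K562 replicate 1 or 2 (log2 differences 0.74 to 0.89). An EREG intron region at 5865 bp (chr4:74370872-74371204), named after its values were seen, had 29, 34 and 35 in V-K562, 22, 21 and no peak in B-K562, and 54, 54 and 34 in G-K562. There the log2 difference was -0.81 ± 0.17 for B-K562 against V-K562 (adjusted p = 0.013, with replicate 3 at the floor and not passed without it) and 0.98 ± 0.23 for G-K562 against B-K562 (adjusted p = 0.011), both short of 2-fold.

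**Figure D3:**
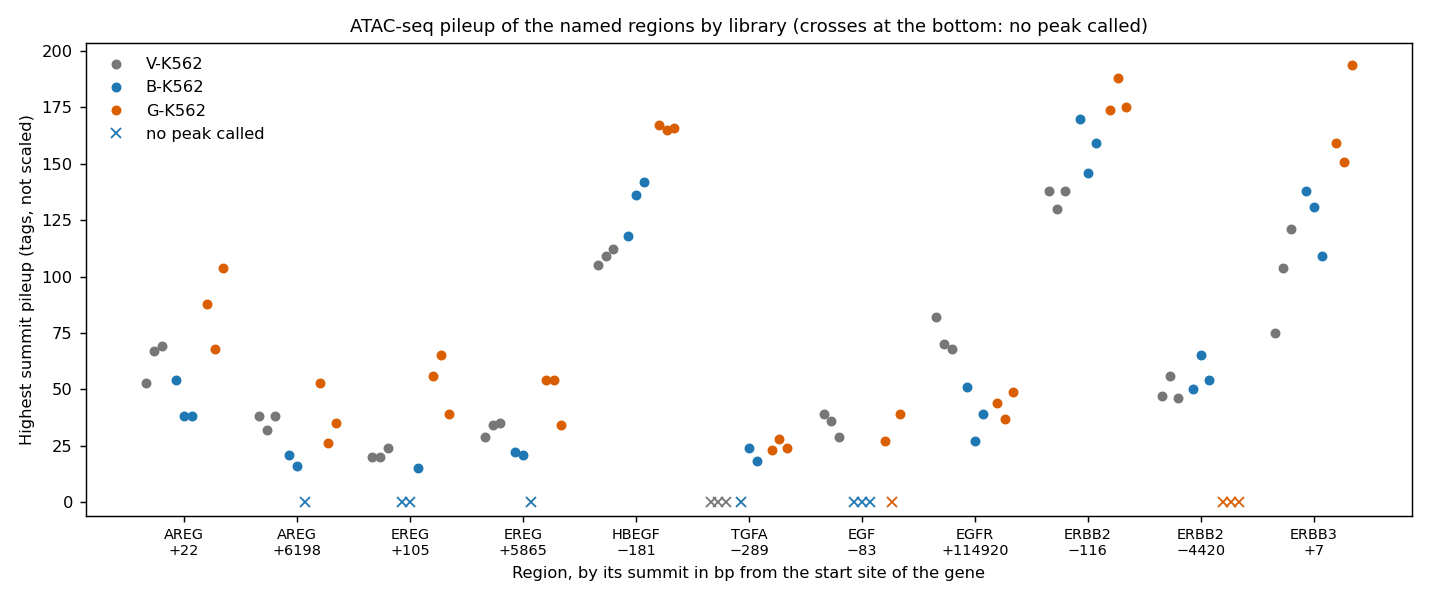
Highest summit pileup (y axis, tags, not scaled) of 11 named regions (x axis, by the distance of the summit from the start of the gene in bp) in each library, coloured by line; crosses at the bottom are libraries without a called peak. The AREG and EREG regions and the EGF start region have their lowest pileups or no peak in B-K562, the region 4420 bp before ERBB2 has no peak in G-K562, and the start regions of HBEGF, ERBB2 and ERBB3 are highest in G-K562 before scaling.

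The start region of EGF (chr4:109912643-109913008, summit 83 bp before the start), which spans the AP-1 letters in the sequence above, had pileups of 39, 36 and 29 in V-K562, no peak in any B-K562 library, and 27, no peak and 39 in G-K562. All B-K562 libraries were at the floor in the fit, which set the log2 difference of -1.05 from V-K562. The other 6 EGF regions lay within the gene, with peaks in 1 to 3 of the V-K562 libraries and 0 to 2 of the G-K562 libraries each, and B-K562 had peaks in 3 of them, in replicate 1 alone. HBEGF had 1 region, 181 bp before its start, with 105, 109 and 112 in V-K562, 118, 136 and 142 in B-K562, and 167, 165 and 166 in G-K562. After scaling, the log2 difference of B-K562 from V-K562 was 0.13 with a 95% interval of -0.13 to 0.38, and G-K562 was 0.26 ± 0.08 above V-K562 (adjusted p = 0.038). This did not pass without any 1 library other than V-K562 replicate 3, and it reversed to -0.089 when regions were scaled by GC content. TGFA had a region 289 bp before its start with no peak in V-K562, 24 and 18 in B-K562 replicates 2 and 3, and 23, 28 and 24 in G-K562, while its RNA was 0 in both BASP1 lines. BTC had 1 region, in an intron, with a peak in G-K562 replicate 2 only (pileup 19).

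The receptors had regions that differed away from their starts. At ERBB2, a region 4420 bp before the start (chr17:39683516-39683858), in an intron of the neighbouring gene PGAP3, had 47, 56 and 46 in V-K562, 50, 65 and 54 in B-K562, and no peak in any G-K562 library. All G-K562 libraries were at the floor in the fit, which set the log2 differences of -1.66 from V-K562 and -1.68 from B-K562. The region at the start of ERBB2, also within 100 bp of an annotated start of PGAP3, had 138, 130 and 138 in V-K562, 170, 146 and 159 in B-K562, and 174, 188 and 175 in G-K562, and after scaling the log2 differences were 0.07 (95% interval -0.14 to 0.29) for B-K562 and 0.06 (-0.16 to 0.27) for G-K562. In EGFR, an intron region 114920 bp after the start (chr7:55133723-55134211) had 82, 70 and 68 in V-K562, 51, 27 and 39 in B-K562, and 44, 37 and 49 in G-K562, with no overlap between V-K562 and either BASP1 line. It was called lower in both, by -1.08 ± 0.24 in B-K562 (adjusted p = 0.014) and by -1.09 ± 0.16 in G-K562 (adjusted p = 0.0017), and no region was found within 2 kb of the EGFR start. Without V-K562 replicate 1 the log2 difference in B-K562 was -0.99 and did not pass (adjusted p = 0.062), and that in G-K562 was -0.99, short of 2-fold (adjusted p = 0.0076). In B-K562 it was also short of 2-fold without B-K562 replicate 2 (-0.85), and both were so without scaling (-0.93 and -0.75) and with the mean pileup (-0.93 and -0.88). ERBB3 had a region 7 bp from its start with 75, 104 and 121 in V-K562, 138, 131 and 109 in B-K562, and 159, 151 and 194 in G-K562. After scaling, the log2 difference of B-K562 from V-K562 was 0.20 (95% interval -0.19 to 0.60, adjusted p = 0.42), on the opposite side of 0 from the RNA. A second region, 793 bp before the start and named after its values were seen, gave -0.25 (95% interval -0.72 to 0.23, adjusted p = 0.40). The summits of both regions were annotated in an intron of ERBB3, with no annotated protein-coding start within 100 bp. In G-K562 against B-K562 the log2 difference was 0.65 ± 0.17 (adjusted p = 0.018) at this second region and 0.20 (adjusted p = 0.44) at the first. The ERBB3 region with the highest pileups, 24359 bp after the start, lies 153 bp from a start of PA2G4, and an ERBB2 region at 42412 bp lies 14 bp from a start of MIEN1.

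AREG, EREG and BTC lie in 1 stretch of chromosome 4 with EPGN (epigen), and 13 other genes of the tables, EPGN among them, lie within 500 kb of it. In B-K562 against V-K562, 4 of these neighbours passed the filter and were tested, of which 2 were called lower and 0 higher, against 14.1% and 6.46% of all genes, with a median log2 difference of -0.96 against 0.01. In G-K562 against V-K562, 6 were tested, with 0 called lower and 3 higher, against 10.3% and 8.81%, and a median of 1.01 against 0.00. Of 6 tested in G-K562 against B-K562, 5 were called higher, against 17.4% of all genes. CXCL1, CXCL2 and CXCL3, which encode chemokines that draw neutrophils, passed as lower in B-K562 and as higher in G-K562 against V-K562. Each had its highest V-K562 value in replicate 1, the library that stands apart. The neighbour CXCL5, which was not tested, had 82 in that library and at most 1 in the others. CXCL3 had 367, 278 and 251 in V-K562, 134, 132 and 141 in B-K562 on the same scale, and 576, 811 and 552 in G-K562, without overlap. Its log2 difference was -1.11 ± 0.13 in B-K562 (adjusted p = 3.00e-06) and 1.11 ± 0.16 in G-K562 (adjusted p = 8.74e-05). CXCL2 fell by 0.81 ± 0.11 on the log2 scale in B-K562 (adjusted p = 1.17e-05) and rose by 0.92 ± 0.12 in G-K562 (adjusted p = 4.30e-05), and CXCL1 fell by 2.16 ± 0.45 (adjusted p = 6.03e-04) and rose by 1.67 ± 0.35 (adjusted p = 0.0012). CXCL1 had 35, 11 and 23 in V-K562, 5.1, 5.1 and 2 in B-K562, and 61, 90 and 58 in G-K562. In B-K562 against V-K562 it passed the filter through the V-K562 libraries alone, where it was higher. It is among the neighbours called lower there. MTHFD2L, between CXCL2 and EPGN, had 284, 272 and 275 in V-K562, 368, 347 and 308 in B-K562, and 254, 256 and 257 in G-K562. Its log2 difference was 0.30 ± 0.09 in B-K562 (adjusted p = 0.0073) and -0.11 in G-K562 (adjusted p = 0.27). The other neighbours tested in G-K562 against V-K562 were PARM1, called higher (log2 difference 1.60 ± 0.40, adjusted p = 0.0040), and PPBP, which did not pass (0.15 ± 0.34, adjusted p = 0.72). PARM1 had 2, 3 and 6 in V-K562 and 11, 13 and 13 in G-K562, so it passed the filter through the G-K562 libraries alone. It is among the neighbours called higher in both comparisons of G-K562.

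**Figure D4:**
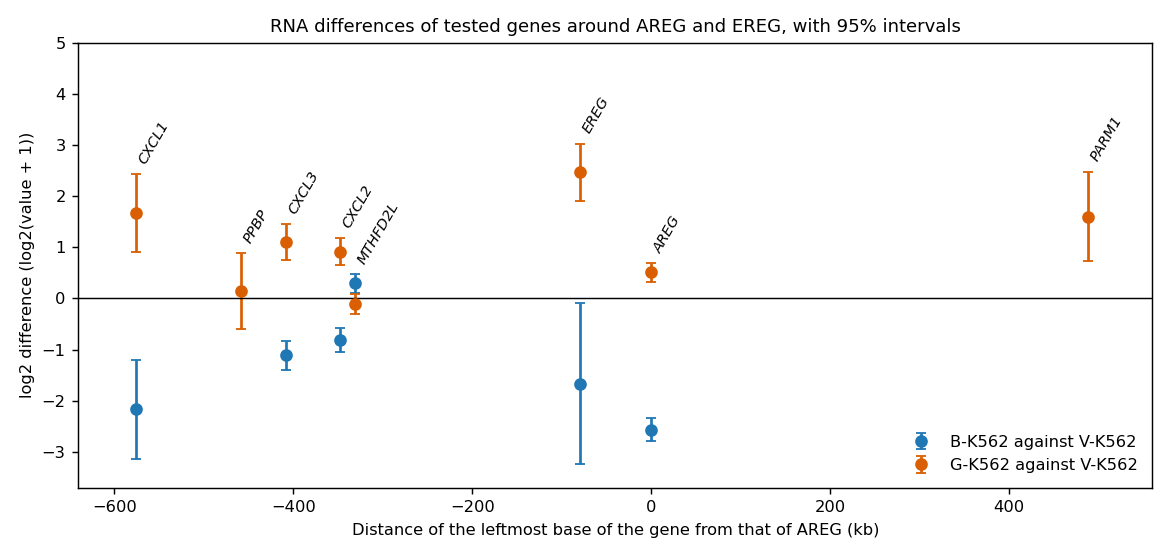
Log2 differences from V-K562 (y axis, log2(value + 1) scale, 95% intervals) of tested genes against the distance of the gene's leftmost base from that of AREG (x axis, kb) in B-K562 and G-K562. CXCL1, CXCL2, CXCL3, EREG and AREG have points below 0 in B-K562 and above 0 in G-K562, though the EREG difference in B-K562 did not pass the test, and MTHFD2L among them lies near 0.

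The genes with the pattern nearest to that of AREG over the 9 libraries, by the root mean square difference of log2(value + 1) from the V-K562 mean, were PHGDH (0.075), NPTXR (0.11) and SCG3 (0.13). PHGDH had mean values of 13005 in V-K562, 2277 in B-K562 and 19968 in G-K562. For EREG the nearest genes were less alike, with NHSL1 at 0.61, LOC101927989 at 0.63 and SORCS2 at 0.65.

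Of 5 other ERBB ligands (EPGN and the neuregulin genes NRG1 to NRG4), only NRG4, an ERBB4 ligand, was expressed enough to test. It had 25, 21 and 22 in V-K562, 38, 27 and 36 in B-K562, and 72, 83 and 87 in G-K562, with no overlap between the lines. NRG4 rose 3.40-fold in G-K562 over V-K562 (log2 difference 1.77 ± 0.18, adjusted p = 4.61e-06) and 2.33-fold over B-K562 (1.22 ± 0.19, adjusted p = 3.25e-05), and by 0.54 ± 0.22 on the log2 scale in B-K562 over V-K562 (adjusted p = 0.040).

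Of 14 genes that release and carry the ligands, 12 were tested. In B-K562 against V-K562, 9 passed as lower and 1 as higher, while 5562 of the 14958 genes tested passed as lower and 5780 as higher. By 2-fold 3 were called lower and 0 higher, against 14.1% and 6.46% of all genes, with a median log2 difference of -0.43 against 0.01. In G-K562 against V-K562, 2 were called lower and 1 higher, against 10.3% and 8.81%, with a median of -0.12 against 0.00. RHBDF2, which carries the sheddase ADAM17 to the cell surface, had 28, 40 and 34 in V-K562, 10, 19 and 13 in B-K562, and 131, 115 and 107 in G-K562, with no overlap between the lines. It fell by 1.25 ± 0.28 on the log2 scale in B-K562 (adjusted p = 9.59e-04) and rose by 1.76 ± 0.18 in G-K562 (adjusted p = 4.78e-06). TIMP3, an inhibitor of these proteases, was lower in both, with log2 differences of -1.04 ± 0.16 in B-K562 (adjusted p = 4.28e-05) and -5.23 ± 0.25 in G-K562 (adjusted p = 1.22e-08), as was the protease gene ADAM19 (-1.59 and -1.99). ADAM10, a sheddase of EGF and BTC, was called in G-K562 against B-K562 (log2 difference 1.31 ± 0.05, adjusted p = 3.52e-11).

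Among the 34 adaptors and effectors that act below the receptors, all tested, 1 was called lower and 3 higher in B-K562, against 14.1% and 6.46% of all genes, and 0 lower and 1 higher in G-K562 against V-K562, against 10.3% and 8.81%. The medians were 0.11 and 0.01, against 0.01 and 0.00 over all genes. These shares are below or near those of all genes. The docking proteins GAB1 and GAB2 moved in opposite directions in B-K562: GAB2 fell by 1.88 ± 0.06 on the log2 scale (adjusted p = 9.55e-12) and GAB1 rose by 1.25 ± 0.06 (adjusted p = 4.76e-10). Between G-K562 and B-K562 both differences ran the other way, at 2.19 ± 0.06 for GAB2 (adjusted p = 1.26e-12) and -1.66 ± 0.08 for GAB1 (adjusted p = 8.85e-11). HRAS and PIK3R2 rose in B-K562 by 1.05 ± 0.06 (adjusted p = 2.71e-09) and 1.08 ± 0.05 (adjusted p = 7.43e-10). In G-K562 against V-K562, PIK3R2 rose by 0.74 ± 0.08 (adjusted p = 5.51e-06), and HRAS did not pass (0.10 ± 0.08, adjusted p = 0.26).

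Of 16 tested of 17 genes listed for receptor restraint and turnover, 4 were called lower and 1 higher in B-K562, against 14.1% and 6.46% of all genes, and 2 lower and 0 higher in G-K562, against 10.3% and 8.81%. The medians were -0.06 and -0.09, against 0.01 and 0.00 over all genes. LRIG3 and LRIG1 belong to a family of membrane proteins of which LRIG1 restrains ERBB receptors. Both were lower in both BASP1 lines. LRIG3 had 37, 64 and 31 in V-K562, 4, 1 and 2 in B-K562, and 0, 1 and 0 in G-K562, which left both BASP1 lines close to 0. It passed the filter through the V-K562 libraries alone, where it was higher, and is among the genes called lower in both comparisons. LRIG1 fell by 1.87 ± 0.38 in B-K562 (adjusted p = 5.25e-04) and by 1.54 ± 0.25 in G-K562 (adjusted p = 1.86e-04). ERRFI1, an inhibitor of the EGFR kinase, fell by 1.57 ± 0.09 in B-K562 (adjusted p = 3.83e-09), and CBLB, a ubiquitin ligase that marks receptors for breakdown, by 1.17 ± 0.09 (adjusted p = 5.06e-08). In G-K562 against V-K562, ERRFI1 also fell, by 0.84 ± 0.11 (adjusted p = 3.70e-05), while CBLB rose by 0.34 ± 0.08 (adjusted p = 0.0036).

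Of the 10 genes listed as responding to ERK, the kinase at the end of the RAS pathway, 4 of 9 tested were called lower and 0 higher in B-K562 against V-K562, against 14.1% and 6.46% of all genes, with a median log2 difference of -0.56 against 0.01. In G-K562 against V-K562, 2 of 8 were called lower and 3 higher, against 10.3% and 8.81%, with a median of 0.59 against 0.00. SPRY4, an inhibitor of the RAS pathway, had 2195, 2045 and 1855 in V-K562, 886, 934 and 971 in B-K562, and 4163, 3880 and 4461 in G-K562. It fell by 1.12 ± 0.07 on the log2 scale in B-K562 (adjusted p = 3.40e-09) and rose by 1.01 ± 0.07 in G-K562 (adjusted p = 3.38e-07). DUSP4, an ERK phosphatase, was lower in B-K562 and G-K562 than in V-K562, with log2 differences of -2.81 ± 0.17 (adjusted p = 5.86e-09) and -3.40 ± 0.16 (adjusted p = 1.21e-08). Those of EPHA2, a receptor kinase, were -2.20 ± 0.42 (adjusted p = 2.96e-04) and -2.57 ± 0.43 (adjusted p = 2.57e-04). EPHA2 met the filter through V-K562, the line where it was higher, and is among the genes called lower in both comparisons. It had 49, 19 and 20 in V-K562, highest in the replicate that stands apart. DUSP6 was highest in that replicate as well (30 against 8 and 9) and was called lower in the comparison of G-K562 with B-K562 (log2 difference -2.92 ± 0.47, adjusted p = 5.49e-05). There it passed the filter through that V-K562 replicate and libraries of B-K562, the line where it was higher. In G-K562 against V-K562 it did not pass the filter.

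**Figure D5:**
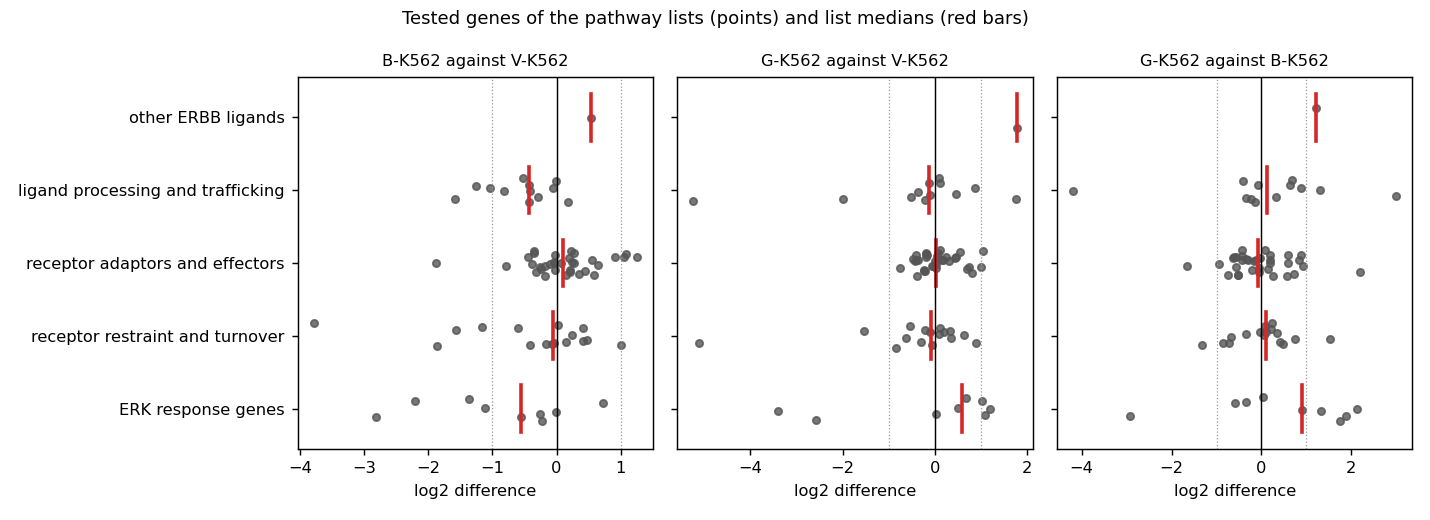
Log2 differences (x axis, log2(value + 1) scale) of the tested genes of 5 pathway lists (y axis) in the 3 comparisons, one point per gene, with the list median as a red bar and 2-fold as dotted lines. The medians stay within 2-fold for all lists of more than 1 tested gene, with the ERK response genes lowest in B-K562 against V-K562 (-0.56) and highest in G-K562 against B-K562 (0.91).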

How the data were processed

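RNA-seq and ATAC-seq libraries (3 per line and assay) were grouped by their titles. The RNA-seq reads were mapped by the authors with STAR to GRCh38 and, without duplicates and multimapping reads, counted over RefSeq genes by Subread. The signal values that the authors deposited are these counts divided by DESeq2 size factors and rounded, in 1 table per comparison with V-K562. The authors' group means, fold changes and p-values in the tables were not used. The ATAC-seq reads were mapped by the authors with BWA-MEM, sampled to equal tags per library and used for peak calls in each library with MACS2, and the deposited pileup signal is the tags at each summit or their mean over the interval. Libraries had 47111 to 55570 peaks.

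Because the values were not raw counts, limma 3.58.1 (R 4.3.3) with a trended prior variance was fitted to log2(value + 1) in place of a count model, and p-values were adjusted by Benjamini-Hochberg over every gene or region in the fit. Genes needed a value of at least 10 in 3 libraries, and regions, made by merging overlapping intervals, a peak in 3 libraries. Pileups were scaled by a trimmed mean (30% of log ratios and 5% of mean values) over the regions at which each library of the fit had a peak. All 9 libraries entered the fit that set G-K562 against B-K562, with B-K562 RNA values multiplied by 1.017, the mean ratio of the V-K562 values between the tables. The fit was tested on simulated data. A further erythroid marker of the list is not reported here. Raw counts were not used here, so no counting interval or floor of detection is given and values at 0 are given as listed. The transfected lines were pools of cells, so p-values measure the spread between replicates of a line and not between independent transfections.

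The 10 genes, the pathway and marker lists and the tests were chosen with earlier results of these data known. All 10 genes are named. Of the regions, the one nearest each start within 2 kb and the called ones are named, and from each pathway list up to 4 called genes with the largest log2 difference. Regions were annotated with GENCODE v44 (protein-coding transcripts, starts within 100 bp) and promoters were taken from RefSeq (GRCh38.p14). Whether counting used the strand is not given in the sources used here. EGFR-AS1, antisense to EGFR, had values of at most 3.05. Alternatives were other filters, pseudocounts, floors, scalings and windows, a replicate block and leaving out each library. Other steps used Python 3.11.15, numpy 2.4.6, pandas 2.3.3 and matplotlib 3.10.9.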

Additional observations from a re-analysis of the deposited data

Results flagged for a closer look

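G-K562 differed from B-K562 in a direct test (limma, all 9 libraries) for 4 of the 6 tested genes, all called higher. Over the 15521 genes tested, 17.4% were called higher and 12.5% lower. The log2 difference was 3.07 for AREG, 4.15 for EREG, 1.59 for EGF and 1.72 for ERBB3, and every G-K562 library was above every B-K562 library in each. The values of these lines did not overlap for 81.0% of all genes tested either. Among the ATAC-seq regions, the start region of EREG met the call rule at 1.37 with all B-K562 libraries at the floor, and the region 4420 bp before ERBB2 at -1.68 with all G-K562 libraries at the floor. Both values are set by the floor and are not measured differences. The BASP1 RNA was 1.48-fold higher in G-K562, and the erythroid markers differed between the lines as well. The part of either in these differences was not tested.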

How the results depend on the processing

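Each result was recomputed under the alternatives, and the causes of the changes were not tested. The number of the 10 genes called in G-K562 against V-K562 went from 1 to 0 when a value of 10 was required in every library, which leaves out EREG, and to 4 without the fold criterion, and stayed at 1 when any 1 library was left out. In the other RNA comparisons it was 3 to 4 and 4 when 1 library was left out. The ATAC-seq counts were less stable. Called regions in B-K562 against V-K562 went from 3 to 5 with the floor at the lowest pileup, 0 without scaling, 1 with a peak required in every library, 0 with the mean pileup and 7 without the fold criterion. In G-K562 against V-K562 they went from 2 to 4, 1 with a peak in every library, 1 with the mean pileup, 7 without the fold criterion and 1 with only regions that overlap a gene. In G-K562 against B-K562 they went from 2 to 4, 0 with a peak in every library, 7 without the fold criterion and 1 with overlap only. Leaving out 1 library gave 0 to 3, 1 to 3 and 2 to 3 called regions, with the 0 and the 1 both without V-K562 replicate 1. Scaling within 20 bins of GC content, added after seeing the data, gave 1 in B-K562 against V-K562 and 4 in G-K562 against B-K562. Small ATAC-seq differences changed sign. For HBEGF at -181 they became -0.13 (B-K562 against V-K562) and -0.089 (G-K562 against V-K562) within GC bins. AREG at 22 became -0.041 within GC bins, and AREG at 6198 became 0.15 within GC bins and 0.022 without scaling, all in G-K562 against V-K562. In G-K562 against B-K562, ERBB2 at -116 became 0.18 and EGFR at 114920 became 0.18 without scaling, and the latter 0.040 with the mean pileup. When 1 library was left out, ERBB2 RNA in G-K562 against B-K562 ran from -0.058 to 0.10. The region of ERBB2 at -4420 ran from -0.084 to 0.12 in B-K562 against V-K562, AREG at 22 from -0.021 to 0.24 and ERBB2 at -116 from -0.0011 to 0.091 in G-K562 against V-K562, and in G-K562 against B-K562 ERBB2 at -116 from -0.088 to 0.0064 and EGFR at 114920 from -0.25 to 0.18. Without scaling, called regions in G-K562 against V-K562 were 4595 lower and 4324 higher in place of 7074 and 1581, and the median over all regions moved from -0.09 to 0.19, so every direction between lines is relative to the scaling. Correlations of same-numbered libraries ran from -0.15 to 0.29 for RNA-seq and from 0.008 to 0.11 for ATAC-seq. Those of differently numbered libraries ran from -0.30 to 0.38 and from -0.084 to 0.041. With 3 replicates per line, such weak correlations cannot decide whether the replicate numbers pair the samples. With a replicate block, EREG in B-K562 against V-K562 passed (log2 difference -1.66, adjusted p = 0.029) and so did ERBB3 in G-K562 against V-K562 (0.25, adjusted p = 0.020). The AREG start region in B-K562 against V-K562 and that of HBEGF in G-K562 against V-K562 did not pass, while that of ERBB3 in G-K562 against V-K562 did. EREG in B-K562 also passed with a pseudocount of 5 (adjusted p = 0.045) and in a fit of all libraries (adjusted p = 0.032).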
